A study of Gasterosteus aculeatus with 227 samples.

Results

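Heat shock proteins and their partner chaperones were examined as 88 of the 25994 rows of 3 gene count tables from the threespine stickleback (Gasterosteus aculeatus), chosen by gene name alone. A row was included where its name began with hsp, dnaj or hsf, or was one of cct2 to cct8 or bag1 to bag6. The 88 rows held 47 J-domain proteins, 11 members of the HSP70 and HSP110 families, 4 HSP90 genes, 6 small heat shock proteins, 7 subunits of the CCT chaperonin, the mitochondrial chaperonin hspd1, 6 BAG proteins, 3 heat shock transcription factors and 3 other genes. One of those 3, hspg2, encodes perlecan, a protein of the extracellular matrix that shares only the name prefix.

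Chaperones bind unfolded or partly folded proteins and help them to fold, to refold after damage or to be degraded. HSP70 proteins do this with J-domain proteins, which deliver substrates and stimulate ATP hydrolysis, and with BAG and HSP110 proteins, which exchange the nucleotide; HSP90 acts later on many signalling proteins, and the CCT ring folds actin and tubulin. Heat shock factors raise a subset of these genes when proteins in the cytosol unfold, and a separate response raises the chaperones of the endoplasmic reticulum (ER) in cells that secrete much protein, such as hepatocytes.

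The fish came from a natural population sampled in its reproductive period. No treatment was given, the labels state no age, and sex was the variable under study. Brain, gills and liver of 80 fish, 40 of each sex, gave 227 libraries of 3′ ends of messenger RNA. The groups compared here were female and male brain (38 and 39 libraries), gills (36 and 36) and liver (35 and 32), and each library came from 1 fish. Tags in the sample descriptions tied the libraries of a fish together.

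Libraries with under 1000000 counts were left out, 11 in all, of which 10 were livers. The others held 4351992 to 28095335 counts. In 6 libraries the genes of the Y chromosome or vitellogenin, the egg yolk precursor, were unusual for the sex label. The library labelled brain male 12 and the library labelled gills male 11 held 14.2% and 18.3% of the Y-linked counts of a median male of their tissue. Both carry the same tag and so come from the same fish. The libraries labelled liver male 32 and liver male 35 held 35.4% and 19.6%, together with vitellogenin at female levels. Those labelled liver female 17 and liver female 23 had little vitellogenin, and the doubt was based on that alone. Their summed hepatocyte markers, 106917 and 170024 CPM, also lay above the female liver median of 41856 CPM. The Y-linked counts could not check a female label. They were summed over Y genes with 0 counts in every female library of the tissue, which fixes all females at 0%. All 6 libraries were kept as labelled and are called of doubtful sex label below. The number of chaperones that differed between the sexes in each tissue is given with and without them. Counts within shorter gene lists and counts of interactions are given only with them. These are whole tissues, so that fewer cells of a type cannot be told apart from less RNA per cell.

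Together the 88 genes summed to 0.91% of the scaled counts in brain, 1.08% in gills and 0.623% in liver, as means over libraries. The scaling factors differ between libraries, so that these are not shares of the raw counts. Levels are given as CPM, counts scaled to a common library size within a tissue. Levels in different tissues are therefore not directly comparable. Because the reads come from the 3′ end, about one per transcript, the values are not divided by gene length. In every tissue the most abundant of the genes was hsp90ab1, the constitutive cytosolic HSP90, with means of 4009 CPM in brain, 6065 CPM in gills and 2258 CPM in liver. Next in brain came hsp90aa1.2, which in zebrafish is the stress-inducible HSP90, at 431 ± 789.6 CPM (SD, n = 77), the constitutive HSP70 hspa8 at 427 ± 102 CPM, and the ER HSP70 hspa5, also called BiP, at 402 ± 275 CPM. These 3 do not differ beyond their spread. In liver hspa5 came second, at 1881 ± 2736 CPM (SD, n = 67), and no other of the genes there had a mean above that of cct7, 185 ± 104 CPM. In gills the order after hsp90ab1 was hspa5 at 602 ± 405 CPM (SD, n = 72), cct7 at 486 ± 149 CPM, a subunit of the CCT ring, and hspa8 at 350.3 ± 126 CPM. The subunits cct3, cct4, cct5 and cct7 were among the 10 most abundant of the genes in both brain and gills, as was hspa4b, an HSP110 relative of HSP70, with means of 165 ± 39.7 and 184 ± 44.7 CPM. The rows named cct2 and hspbap1 were at 0 counts in every library.

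The spread between fish was far wider for some genes than for others. In brain, hsf1, the main heat shock transcription factor, ran from 11.8 to 32.2 CPM with a median of 19.8 in females and from 13.6 to 28.9 CPM with a median of 20.8 in males, so that the sexes overlapped over nearly their whole range. By contrast hsp90aa1.2 ran from 76.4 to 864 CPM with a median of 299 in females and from 81.4 to 5873 CPM with a median of 172 in males in the same brains. The highest male stood far above all other brain libraries except one more male. The related hsf2 had means of 57 ± 12.6 CPM in brain, 37.2 ± 12.0 CPM in gills and 10.7 ± 3.34 CPM in liver. Each mean is scaled within its own tissue, so they do not compare the tissues. Comparisons of hsf2 between tissues, which depend on the scaling, are given further below.

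**Figure D1:**
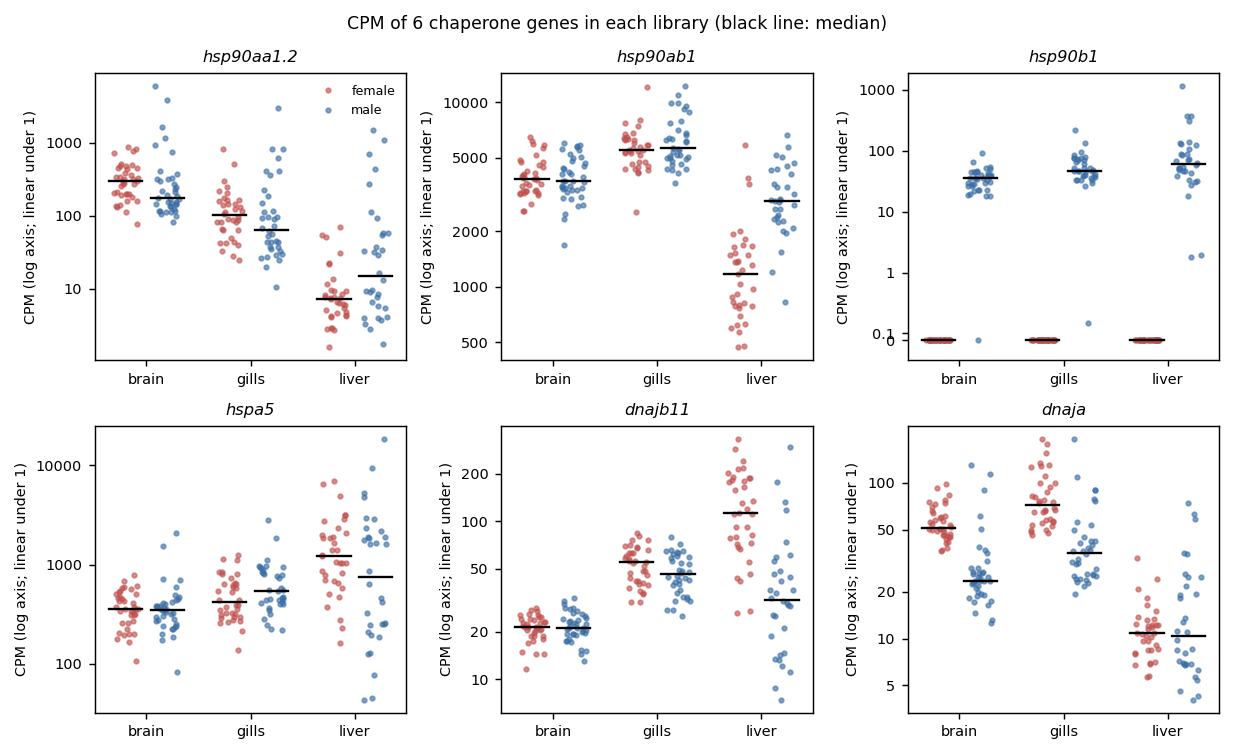
CPM (log axis, linear under 1) of hsp90aa1.2, hsp90ab1, hsp90b1, hspa5, dnajb11 and dnaja in each kept library, by tissue and sex, with a black line at the median of each group. Male livers sit above female livers for hsp90ab1 (medians 2922 and 1174 CPM) and below them for dnajb11 (medians 32.0 and 113 CPM), and hsp90b1 is at 0 in every female library.

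In liver the sexes differed in opposite directions for 2 branches of the chaperone system. Males had higher levels of HSP90 and of most heat-inducible chaperones tested, and females had higher levels of several J-domain proteins of the ER. Of the 73 chaperone genes tested in liver, 30 differed between the sexes (edgeR's quasi-likelihood test, Benjamini-Hochberg adjusted p under 0.05), 10 higher in females and 20 higher in males. Over all 13447 genes tested in liver 39.2% differed, 16.1% higher in females and 23.1% in males, so that the share among the chaperones was close to that background. The median log2 difference, female minus male, was -0.04 for the chaperones and -0.12 for all genes. Without the 4 livers of doubtful sex label, 40 of 74 differed, 18 higher in females and 22 in males, against 45.1% of all genes. For the females among those 4 livers the doubt rests on vitellogenin alone.

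Both cytosolic HSP90 genes that could be tested in liver were higher in males, as was the row named hsp90b1, for which the gene table has no entry, so that which copy it stands for is not settled. The constitutive hsp90ab1 ran from 468 to 5852 CPM with a median of 1174 in females and from 825 to 6667 CPM with a median of 2922 in males. The ranges overlapped, but 31 of the 32 male livers lay above the female median. Its means were 1399 ± 1082 CPM in the 35 females and 3198 ± 1331 CPM in the 32 males (SD), a log2 difference of -1.19 ± 0.19 (SE; edgeR adjusted p = 4.3e-07). The inducible hsp90aa1.2 ran from 1.58 to 69.5 CPM with a median of 7.36 in females and from 1.74 to 1484 CPM with a median of 14.9 in males. Here 22 of 32 males lay above the female median and 7 above the highest female, and the male mean rests on a few fish. Its log2 difference was -3.54 ± 0.57 (edgeR adjusted p = 6.5e-07), and -3.00 ± 0.53 (edgeR adjusted p = 4.4e-06) without the highest liver, male 24, a refit chosen after the data were seen. The row named hsp90b1 is described with the brain and gills.

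Heat shock factor raises the heat-inducible chaperones in many animals. Of the 6 tested in liver, 5 were higher in males and none was higher in females. The other, bag3, did not pass the test. The median log2 difference of the 6 was -1.14, against -0.12 over all genes. The J-domain protein dnajb1b, a cytosolic partner of HSP70, ran from 0.506 to 5.48 CPM with a median of 1.58 in females and from 1.15 to 19.2 CPM with a median of 2.41 in males. In 28 of 32 males it lay above the female median, with a log2 difference of -1.24 ± 0.26 (edgeR adjusted p = 7.8e-05). Its paralog dnajb1a differed by -1.05 ± 0.23 (edgeR adjusted p = 1.6e-04). The HSP110 protein hspa4a, a nucleotide exchange factor of HSP70, had means of 8.14 ± 3.76 CPM in females and 21.2 ± 22.6 CPM in males and differed by -1.37 ± 0.23 (edgeR adjusted p = 1.1e-06). The mitochondrial chaperonin hspd1 differed by -0.55 ± 0.20 (edgeR adjusted p = 0.022), a call that was lost without liver male 32, which held 657 CPM (-0.32, adjusted p = 0.14). That library is one whose sex label is in doubt.

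Male levels were also higher for some constitutive chaperones. hspa8, the constitutive HSP70, was higher in males with a log2 difference of -0.73 ± 0.22 (edgeR adjusted p = 0.0062), with 19 of 32 males above the female median. Also higher in males was bag2, a BAG protein that inhibits the ubiquitin ligase CHIP (-0.92 ± 0.17, edgeR adjusted p = 5.8e-06). Among the J-domain proteins, dnajc19, part of the import motor of mitochondria, ran from 30.1 to 179 CPM with a median of 58.6 in females and from 55.7 to 420.1 CPM with a median of 146 in males. All but 1 of the 32 male livers lay above the female median, and the log2 difference was -1.11 ± 0.18 (edgeR adjusted p = 4.8e-07). dnajc17, a nuclear J-domain protein linked to splicing, had means of 2.93 ± 2.22 CPM in females and 7.57 ± 4.73 CPM in males (-1.36 ± 0.29, edgeR adjusted p = 8.2e-05). The remaining male-higher genes, dnaja, dnaja1, dnaja2a, dnajb6a, dnajb6b, dnajc2, dnajc9, dnajc16l and hspa12b, had log2 differences from -1.04 to -0.37. Of these, dnaja lost its call without male 22 (adjusted p = 0.12) and dnajc2 without male 32 (adjusted p = 0.052).

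Among the 13 ER chaperones and ER J-domain proteins tested in liver, 6 were higher in females and 1, the row named hsp90b1, whose identity is not settled, was higher in males, with a median log2 difference of 0.23. The largest difference among those 6 was that of dnajc25, which ran from 29.3 to 407 CPM with a median of 104 in females and from 15.6 to 215 CPM with a median of 36.6 in males. In 32 of 35 females it lay above the male median, and it differed by 1.47 ± 0.22 (edgeR adjusted p = 1.0e-07). dnajb11, a J-domain protein of the ER lumen that works with BiP, ran from 26.4 to 335 CPM with a median of 113 in females and from 7.42 to 295 CPM with a median of 32.0 in males. For this gene 33 of 35 females lay above the male median, with a log2 difference of 1.39 ± 0.27 (edgeR adjusted p = 2.4e-05). Close to it stood dnajc3a, an inhibitor of the kinases that stop translation under ER stress, with means of 70.5 ± 35.4 CPM in females and 28.7 ± 35.8 CPM in males (1.3 ± 0.29, edgeR adjusted p = 1.6e-04). The ER-associated HSP70 hspa13 differed by 1.17 ± 0.29 (edgeR adjusted p = 7.1e-04) and dnajc1 by 0.52 ± 0.15 (edgeR adjusted p = 0.0039). The last of the 6, dnajb9a, lies on the X chromosome and was not particular to liver. Its log2 difference was 0.75 in liver, 0.84 in brain and 0.93 in gills. Outside the ER, dnajc24, which takes part in modifying elongation factor 2, was higher in females by 1.02 ± 0.15 (edgeR adjusted p = 1.2e-07), and cct4 by 0.42 ± 0.15 (edgeR adjusted p = 0.022). No other subunit among the 6 of the CCT complex tested in liver passed the test.

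BiP itself, hspa5, did not pass the test in liver. It ran from 163 to 6906 CPM with a median of 1214 in females and from 43.3 to 18618 CPM with a median of 749 in males, so that the male livers included both the lowest and the highest values. The log2 difference was -0.25 ± 0.41 (edgeR adjusted p = 0.67).

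The other ER folding factors, proteins that are not named heat shock proteins but work beside them, are the enzymes and regulators of the same compartment. Of the 20 tested in liver, 11 were higher in females and 1, calr, was higher in males, with a median log2 difference of 0.77 against -0.12 over all genes. Among them were the disulfide isomerase pdia4 (1057 ± 644 CPM in females, 254 ± 379 CPM in males, log2 difference 2.06 ± 0.34), xbp1, a transcription factor of the ER stress response (1.99 ± 0.31), and creld2, an ER protein raised by ER stress (1.96 ± 0.38). Their edgeR adjusted p-values were 1.1e-06, 2.5e-07 and 2.0e-05. The 19 other cytosolic co-chaperones tested were divided, with 4 higher in females, the prefoldin subunits pfdn1, pfdn4 and pfdn5 and the HSP70 importer hikeshi, and 3 higher in males, chordc1b, sgtb and the HSP90 partner cdc37. Among 7 other mitochondrial folding factors, 2 were higher in each sex.

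The make-up of the liver libraries differed between the sexes as well. Vitellogenin 3, which female livers make in response to estrogen, was higher in females by a log2 difference of 3.68 ± 0.79 (edgeR adjusted p = 1.3e-04). Its median was 11617 CPM in females and 13.7 CPM in males, and the male values include the libraries labelled liver male 32 and liver male 35, at 6346 and 19733 CPM. Without the 4 livers of doubtful sex label the difference was 8.75 ± 0.45 (edgeR adjusted p = 7.0e-27). Vitellogenin was part of what put the males among those livers in doubt, and all of it for the females. Leaving those livers out therefore raises this difference by construction. Of 11 hepatocyte markers, 10 were higher in males and 1 in females, and their summed level ran from 15251 to 170024 CPM (median 41856) in females and from 29812 to 271908 CPM (median 106079.8) in males. All 6 striated muscle markers tested were higher in males, with sums from 4.09 to 39.2 CPM (median 13.0) in females and from 4.65 to 1172 CPM (median 14.0) in males. Their part in the chaperone differences was not tested. When libraries were scaled by their total counts, the median of all genes moved from -0.12 to -0.51. Then 47 of the 73 chaperones differed, 7 higher in females and 40 in males. Over all 13447 genes 7795 differed, 1020 higher in females and 6775 in males. The split between the sexes thus depends on the scaling, for all genes as for the chaperones.

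**Figure D2:**
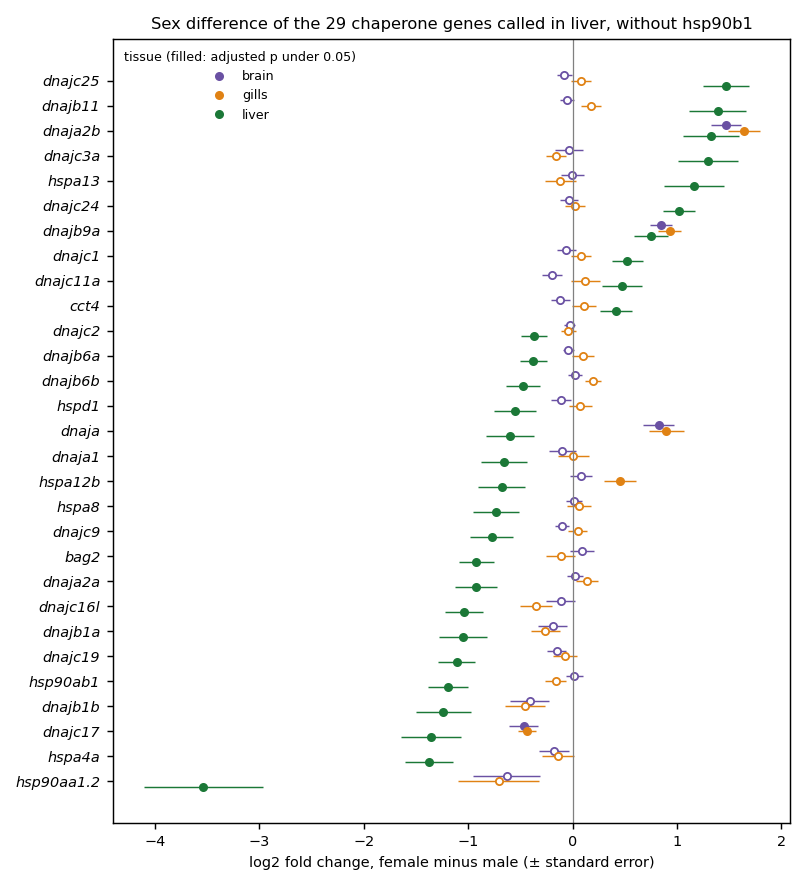
Log2 difference, female minus male, with its standard error, for the 29 chaperone genes other than hsp90b1 that passed the test in liver, in brain (purple), gills (orange) and liver (green), with filled points where the adjusted p was under 0.05. In liver the points run from -3.54 for hsp90aa1.2 to 1.47 for dnajc25, while most brain and gill points lie near 0.

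In brain and gills few chaperones differed between the sexes, and those with the clearest differences were the same 5 rows in both tissues, dnaja, dnajb9a, dnaja2b, dnajc17 and hsp90b1. In brain 5 of the 80 chaperones tested passed the test, 3 higher in females and 2 in males, against 7.22% of 18392 genes, 4.64% higher in females and 2.58% in males. In gills 11 of 82 passed, 5 higher in females and 6 in males (3 and 6 with library totals), against 13.5% of 17654 genes, 6.02% higher in females and 7.45% in males. Leaving out the library of doubtful sex label did not change these counts in either tissue.

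dnaja and dnajb9a are the only 2 of the 83 chaperone genes matched to the RefSeq gene table (assembly fGasAcu3.hap1.1) that it places on the X chromosome, which in this species pairs with a degenerate Y. Of all genes placed on X, 93.3% differed between the sexes in brain and 87.7% in gills, against 1.67% and 8.77% of autosomal genes. dnajb9a, a J-domain protein of the ER that assists BiP, ran in brain from 11.7 to 52.9 CPM with a median of 22.1 in females and from 5.05 to 23.8 CPM with a median of 12.8 in males. In 37 of 38 females it lay above the male median, and the log2 difference was 0.84 ± 0.11 in brain (edgeR adjusted p = 1.5e-10), 0.93 ± 0.11 in gills (edgeR adjusted p = 1.3e-11) and 0.75 ± 0.16 in liver (edgeR adjusted p = 1.5e-04). dnaja, a J-domain protein of the DNAJA class, ran in brain from 36.6 to 97.8 CPM with a median of 51.5 in females and from 12.6 to 131 CPM with a median of 23.3 in males. All 38 females lay above the male median, yet the highest male lay above every female. It was higher in females by 0.82 ± 0.15 in brain (edgeR adjusted p = 6.0e-06) and 0.90 ± 0.17 in gills (edgeR adjusted p = 1.8e-05), while in liver the difference was -0.60 ± 0.23 (edgeR adjusted p = 0.028). In liver 16 of 32 males lay above the female median and 5 above the highest female, and without liver male 22 the difference was -0.42 and did not pass (edgeR adjusted p = 0.12).

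dnaja2b, for which the table holds no entry, was higher in females in all 3 tissues, with a log2 difference of 1.47 ± 0.14 in brain (edgeR adjusted p = 3.5e-15), 1.64 ± 0.15 in gills (edgeR adjusted p = 1.4e-15) and 1.33 ± 0.27 in liver (edgeR adjusted p = 3.8e-05). In gills it ran from 2.35 to 24.2 CPM with a median of 9.85 in females and from 0.818 to 6.42 CPM with a median of 3.39 in males, and 31 of 36 females lay above the highest male. Its near relative dnaja2a went the other way in liver and did not pass the test in brain or gills, and reads shared between such close copies could not be checked here. The autosomal dnajc17 was higher in males in all 3 tissues, with a log2 difference of -0.47 ± 0.14 in brain (edgeR adjusted p = 0.017) and -0.44 ± 0.09 in gills (edgeR adjusted p = 5.7e-05), where 35 of 36 males lay above the female median.

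The row named hsp90b1, the name of the HSP90 of the ER, was detected in males only. It had 0 counts in all 39 female brains, 36 female gills and 38 female livers, shallow libraries included. In males it ran from 0 to 91.4 CPM with a median of 35.6 in brain, from 0.257 to 222.7 CPM with a median of 47.0 in gills and from 1.78 to 1166 CPM with a median of 60.4 in liver. The lowest of these values belong to libraries of doubtful sex label, with 0 counts in brain male 12, 3 in gills male 11, 14 in liver male 32 and 7 in liver male 35; without them the lowest males stood at 18.1, 26.4 and 17.9 CPM. Set against a floor of 3 counts per library, the mean level was at least 151-fold higher in males in brain, at least 227-fold in gills and at least 406-fold in liver. The gene table gave no position for this row, and whether females express another copy of the gene was not analysed here. Of the genes that the table places on the Y chromosome, 94.5%, 93.6% and 96% differed between the sexes in brain, gills and liver.

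The other 6 chaperones that passed the test in gills did not pass it in brain. hspa1b, a stress-inducible HSP70, ran from 0.101 to 5.85 CPM with a median of 0.954 in females and from 0 to 56.5 CPM with a median of 0.848 in males. The medians were close, and only 17 of 36 males lay above the female median. The log2 difference of -1.38 ± 0.41 (edgeR adjusted p = 0.015) became -0.45 (adjusted p = 0.45) without gills male 21. dnajc6, or auxilin, which strips clathrin from vesicles in neurons, was higher in males, with a log2 difference of -0.64 ± 0.18 (edgeR adjusted p = 0.0085), hspa12a, a distant HSP70 relative abundant in brain, likewise with -0.57 ± 0.16 (edgeR adjusted p = 0.0075), and the mitochondrial dnajc30b with -0.64 ± 0.22 (edgeR adjusted p = 0.04). Higher in females were dnajc27 (0.50 ± 0.17, edgeR adjusted p = 0.031) and hspa12b (0.46 ± 0.16, edgeR adjusted p = 0.038). The calls of dnajc30b, dnajc27 and hspa12b were each lost without the highest library of the higher sex, male 14, female 8 and female 5 (adjusted p = 0.075, 0.051 and 0.062).

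Some markers of neurons and glia also differed between the sexes in gills. Of 12 such markers tested in gills, 5 were higher in males (snap25a, plp1b, elavl4, sncb and fez1) and none in females, and their sum ran from 59.2 to 208 CPM (median 103) in females and from 78.3 to 493 CPM (median 122) in males. Gills male 14, the highest for dnajc6 and dnajc30b, had the highest marker sum of the 72 gill libraries, 493 CPM, and gills male 6, the highest for hspa12a, the third highest, 342 CPM. Gills male 21, the highest for hspa1b, ranked 20 of 72, at 135 CPM. The part of these cells in the differences was not tested.

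Whether a sex difference differed between tissues was tested by an interaction of sex and tissue over all kept libraries. That fit had no term for fish, so that libraries of the same fish were treated as independent. Between liver and brain the sex difference differed for 29 of 84 chaperones, against 29% of 20039 genes, and between liver and gills for 33 of 84, against 29.9%. Between gills and brain it differed for 0 of 84 by edgeR's quasi-likelihood test, against 0.674% of genes; 5 chaperones and 10.6% of genes had an unadjusted p under 0.05 there. With DESeq2's size factors in that test the count was also 0. The interaction was negative, that is toward higher male levels in liver, for hsp90aa1.2 (-2.86 ± 0.59 against brain, -2.81 ± 0.60 against gills), hspa4a (-1.23 ± 0.25 and -1.29 ± 0.26) and hsp90ab1 (-1.24 ± 0.19 and -1.08 ± 0.19), with edgeR adjusted p-values from 8.9e-09 to 6.7e-05. It was positive for dnajc25 (1.47 ± 0.20 and 1.3 ± 0.20), dnajb11 (1.37 ± 0.23 and 1.14 ± 0.23) and dnajc3a (1.26 ± 0.26 and 1.38 ± 0.26), with edgeR adjusted p-values from 1.1e-10 to 3.1e-05. The X-linked dnaja, higher in females in brain and gills, gave -1.45 ± 0.26 and -1.54 ± 0.26 (edgeR adjusted p = 1.4e-06 and 4.5e-07), and -1.31 and -1.4 without liver male 22.

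The interaction of hspb7, a small heat shock protein of heart and skeletal muscle, rested on 1 library. Liver male 9 held 78.9 CPM of hspb7, against a median of 0.871 CPM over male livers, and its sum of muscle markers, 132 CPM, was the third highest of 67 livers. With it the interaction was -1.83 ± 0.44 against brain and -2.02 ± 0.45 against gills. Without it the values were 0.01 and -0.18.

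Tags linked brain and gills of 69 fish, brain and liver of 64 and gills and liver of 62. The level of a gene in one tissue was correlated with its level in another tissue of the same fish, after the mean of each sex had been removed. Between brain and gills, 9 of 79 chaperones agreed at an adjusted p under 0.05, all positively, against 3.54% of 16601 genes. Of the 8 heat-inducible chaperones tested 5 were among them, with a median rho of 0.47, against 0.13 for all 79 chaperones and 0.09 for all genes. With 100000 permutations within sex the smallest p they can give is 1e-05.

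hsp90aa1.2 had Spearman's rho 0.71 (permutation p = 1e-05, adjusted p = 0.0013) and Pearson's r 0.80 (permutation p = 1e-05), or 0.73 without the 2 fish farthest from the median. It held within females (rho 0.60, n = 34) and within males (rho 0.79, n = 35), and within both series of tag numbers, those under 100 (0.51) and those from 200 (0.60). dnaja had Spearman's rho 0.67 (permutation p = 1e-05, adjusted p = 0.0013) and Pearson's r 0.80 (permutation p = 1e-05), or 0.72 without the 2 fish farthest from the median. The pair dnajb1a and dnajb1b, the cytosolic J-domain partners of HSP70 in the heat response, had rho 0.58 (r 0.72, or 0.64 without the 2 fish) and 0.50 (r 0.59, or 0.47), with permutation-based adjusted p-values of 0.0021 and 0.0013. hspa4a followed with rho 0.48 (r 0.74, or 0.65, permutation-based adjusted p = 0.0021). Within tag series hspa4a gave 0.52 and 0.23. The others that agreed were hsp90aa1.1 (rho 0.45), dnajc19 (0.44), hspa14 (0.43) and hspa5 (0.39).

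Few chaperones agreed between the liver and another tissue. Between brain and liver only hsp90aa1.2 of 72 chaperones passed, against 1.24% of 13141 genes, with Spearman's rho 0.47 (permutation p = 2.6e-04, adjusted p = 0.032) and Pearson's r 0.55 (permutation p = 1.5e-04), or 0.52 without the 2 fish farthest from the median. Within tag series it fell to 0.32 and 0.36, and with tag series as a term it did not pass (rho 0.34, adjusted p = 0.23). hsp90b1 had the higher rho of 0.58, which rests on males alone and did not pass (permutation-based adjusted p = 0.075). Between gills and liver 0 of 72 passed with Spearman's rho, and 0 with Pearson's r, against 0.568% of 13030 genes; 7 of them, and 8.99% of genes, had an unadjusted permutation p under 0.05. The difference between pairs of tissues was itself not tested.

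One male fish stood above the others in all 3 tissues. Its libraries, brain male 24, gills male 21 and liver male 24, were the highest of their tissue for hsp90aa1.2, dnajb1a, dnajb1b and dnajb2, and no other of the 59 fish with 3 kept libraries was the highest in every tissue for any of the 72 chaperones tested in all. Its hsp90aa1.2 reached 5873 CPM in brain, 2926 CPM in gills and 1484 CPM in liver, against medians of 231.4, 88.2 and 8.18 CPM. That is 25.4, 33.2 and 181 times the median. Its dnajb1b stood at 60.4, 88.9 and 19.2 CPM, 7.74, 9.15 and 8.88 times the median. The inducible HSP70 hspa1b was 27.3 and 59.8 times the median in its brain and gills, and 0.0979 CPM in its liver, where the median was 0. The constitutive hsp90ab1 was 1.49, 2.2 and 2.97 times the median, far less than hsp90aa1.2 and dnajb1b. Not all heat-inducible genes stood so high. In brain, gills and liver hspd1 was at 2.17, 2.19 and 4.02 times the median, and bag3 at 2.71, 4.40 and 2.45 times. The ER gene hspa5 was at 4.29, 6.11 and 2.03 times. A second male, brain male 22 and liver male 22, with no gill library, had the second highest heat-inducible sum in brain, 4989 CPM against a median of 472 CPM, and the third highest in liver, 1045 CPM against 161 CPM.

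**Figure D3:**
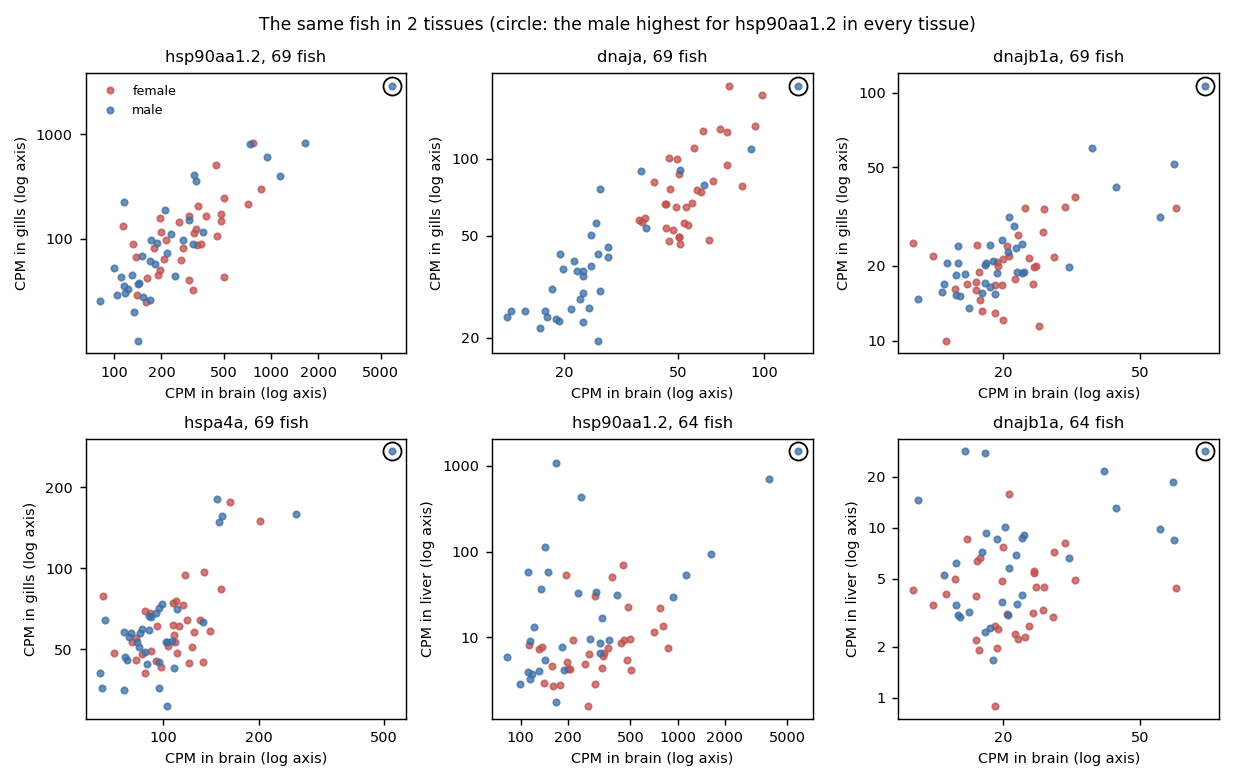
CPM (log axes) of hsp90aa1.2, dnaja, dnajb1a and hspa4a in brain against gills, and of hsp90aa1.2 and dnajb1a in brain against liver, one point per fish, females and males in different colours, with a circle around the male that was highest for hsp90aa1.2 in every tissue. The brain and gill points rise together, and the circled fish reads 5873 and 2926 CPM for hsp90aa1.2.

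Among the 35 female livers, the chaperones were compared with the level of vitellogenin 3, which female livers make in bulk for the egg yolk and which passes through the ER on its way out. The 35 include the livers labelled female 17 and female 23, of doubtful sex label, at 37.7 and 14.8 CPM of vitellogenin 3. Of 73 chaperones 13 were related to it at an adjusted p under 0.05, 10 positively and 3 negatively, against 28.1% of 13446 genes, 11.3% positively and 16.7% negatively. That share is below the background over all genes. The ER chaperones and ER J-domain proteins gave 6 of 13, all positive. The 13 and the 73 include hsp90b1, which is at 0 counts in every female liver, and the median rho over the other 12 ER genes was 0.33. The other ER folding factors gave 11 of 20, all positive, with a median of 0.44. The median over all genes was -0.09.

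dnajc3a had rho 0.71 (permutation p = 1e-05, adjusted p = 5.0e-04), Pearson's r 0.72 (permutation p = 1e-05), and r 0.52 without the 2 livers farthest from the median. Those 2 livers, here and below, are the ones labelled female 17 and female 23, whose sex label is in doubt. For dnajb11 the values were rho 0.62 (permutation p = 6.0e-05, adjusted p = 0.0015), Pearson's r 0.63 (permutation p = 4.0e-05), and r 0.63 without the 2 livers farthest from the median. dnajc24 had rho 0.72 (permutation p = 1e-05, adjusted p = 5.0e-04), Pearson's r 0.53 (permutation p = 4.7e-04), and r 0.68 without the 2 livers farthest from the median. Also positive were dnajc15 (rho 0.62), dnajc11a (0.62), dnajb12a (0.61), hspa13 (0.55), dnajc25 (0.54), hspa9 (0.48) and dnajc3b (0.44). By Pearson's r only 5 of the 13 passed, dnajc3a, dnajb11, dnajc24, dnajc25 and hsp90ab1. The permutation-based adjusted p for Pearson's r was 0.2 for dnajc15, 0.15 for dnajc11a, 0.67 for dnajb12a, 0.28 for hspa13, 0.54 for hspa9, 0.33 for dnajc3b, 0.071 for dnajc16l and 0.92 for hspa12a. In the opposite direction hsp90ab1 had rho -0.63 (permutation p = 1.0e-04, adjusted p = 0.0022), Pearson's r -0.65 (permutation p = 1.3e-04), and r -0.62 without the 2 livers farthest from the median. dnajc16l was also negative, with rho -0.58 (permutation p = 3.5e-04, adjusted p = 0.0046), Pearson's r -0.45 (permutation p = 0.0073), and r -0.07 without the 2 livers farthest from the median, so that its Pearson's r rests on those livers. The third was hspa12a (rho -0.46). hspa5 had rho 0.15 and Pearson's r 0.09, with a permutation-based adjusted p of 0.53 for rho. Without the 2 livers of doubtful sex label rho was 0.65 for dnajc3a, 0.56 for dnajb11 and 0.69 for dnajc24. It was -0.56 for hsp90ab1 and -0.50 for dnajc16l.

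Within the 2 series of tag numbers dnajc3a gave rho 0.45 (n = 15) and 0.91 (n = 18), dnajb11 0.35 and 0.75, and hsp90ab1 -0.40 and -0.76. Both livers of doubtful sex label are in the larger of these series. With vitellogenin left out of the totals, again 13 chaperones passed.

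**Figure D4:**
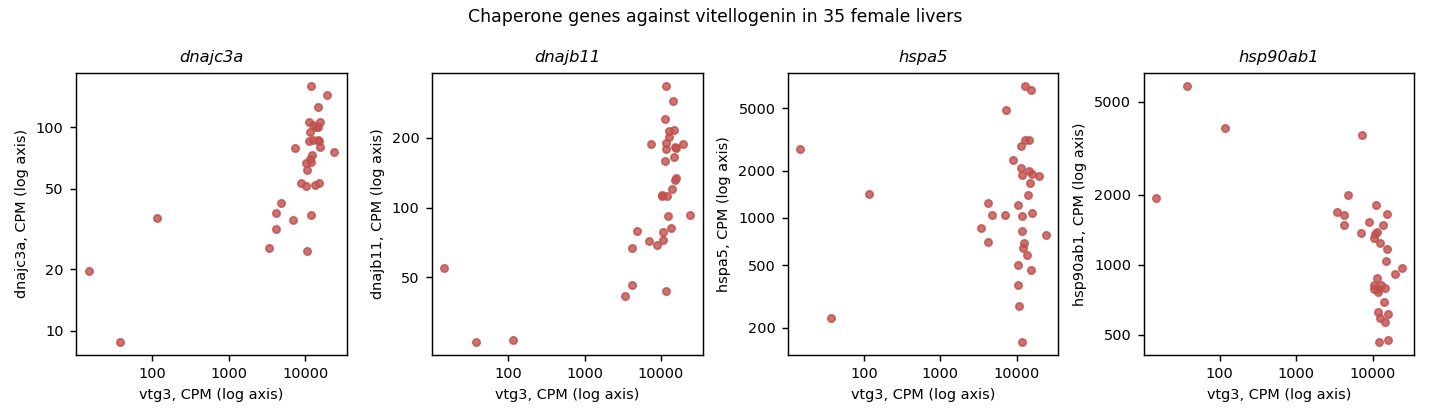
CPM (log axes) of dnajc3a, dnajb11, hspa5 and hsp90ab1 against vitellogenin 3 in the 35 female livers, one point per liver. The female livers of doubtful sex label are included. dnajc3a and dnajb11 rise with vitellogenin (rho 0.71 and 0.62), hspa5 shows no such order (rho 0.15), and hsp90ab1 falls (rho -0.63).

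To see which chaperones varied together among fish, each gene was correlated within a tissue with 3 anchor genes, dnajb1b for the heat response of the cytosol, hspa5 for the ER and cct5 for the CCT ring, after removal of the mean of each sex. The CCT subunits moved together in every tissue. With cct5, all 5 of the other subunits tested (cct3, cct4, cct6a, cct7 and cct8) correlated positively at an adjusted p under 0.05 in brain, gills and liver, with median rho of 0.82, 0.52 and 0.84. For cct4, rho was 0.86 (brain), 0.59 (gills) and 0.84 (liver), Pearson's r 0.89, 0.73 and 0.85, and r 0.86, 0.49 and 0.83 without the 2 farthest libraries; every permutation p was 1e-05. In gills cct7 had rho 0.52 but Pearson's r 0.18 (permutation p = 0.11). The backgrounds differed widely, since in brain 58% of all genes were related to cct5 (53 of 79 chaperones), in gills 22.9% (20 of 81 chaperones) and in liver 16.9% (22 of 72 chaperones). In brain the mitochondrial chaperonin hspd1 (rho 0.73) and hspa9 (0.67) were also close to cct5, as was dnaja3a, a mitochondrial J-domain protein (0.77). hspbp1 was among the closest in gills (rho 0.49) and hspa4b in liver (0.54). By Pearson's r 31 chaperones were related to cct5 in gills. No share of all genes by Pearson's r is given for cct5, so this count has no background.

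With hspa5 the closest gene was dnajc3b, the second copy of the ER co-chaperone dnajc3, in gills and liver, and the second closest in brain. Its rho was 0.63 (brain), 0.74 (gills) and 0.91 (liver), Pearson's r 0.65, 0.74 and 0.92, and r 0.60, 0.71 and 0.91 without the 2 farthest libraries, every permutation p being 1e-05. dnajb11 followed with rho 0.44 (brain), 0.53 (gills) and 0.72 (liver). The cytosolic hspa4a, not an ER protein, also correlated with hspa5, with rho 0.64 (brain), 0.61 (gills) and 0.42 (liver). In liver 27 of 72 chaperones were related to hspa5, against 20.6% of genes, and the ER chaperones and ER J-domain proteins gave 7 of 12, all positive, with a median rho of 0.40. The counts were 17 of 79 against 8.25% in brain and 7 of 81 against 3.09% in gills. There 12 passed by Pearson's r, a count without a share of all genes beside it. In brain dnajb5, a cytosolic J-domain protein, was among those related to hspa5 (rho 0.47). dnajc3a, which followed vitellogenin among female livers, had rho 0.75 with hspa5 in liver, 0.53 among females and 0.86 among males.

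With dnajb1b, 18 of 79 chaperones were related in brain, against 18% of genes, and 25 of 81 in gills, against 24.6%. The heat-inducible list gave 5 of 7 in brain and 4 of 8 in gills, all positive, with median rho of 0.47 and 0.29 against 0.01 and -0.01 over all genes. In brain the closest were dnajb1a (rho 0.72), dnaja (0.71) and hspa4a (0.67). Their Pearson's r of 0.82, 0.82 and 0.80 became 0.76, 0.73 and 0.72 without the 2 farthest libraries, and every permutation p was 1e-05. In liver 0 of 72 chaperones passed, as did 0% of all genes, although 12 chaperones had an unadjusted permutation p under 0.05 (3.07% of genes) and 3 passed with Pearson's r (0.0297% of genes). There hsp90aa1.2 had rho 0.51 with the smallest p that the permutations can give, 1e-05, and an adjusted p of 0.067, so that the number of permutations limits this count.

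**Figure D5:**
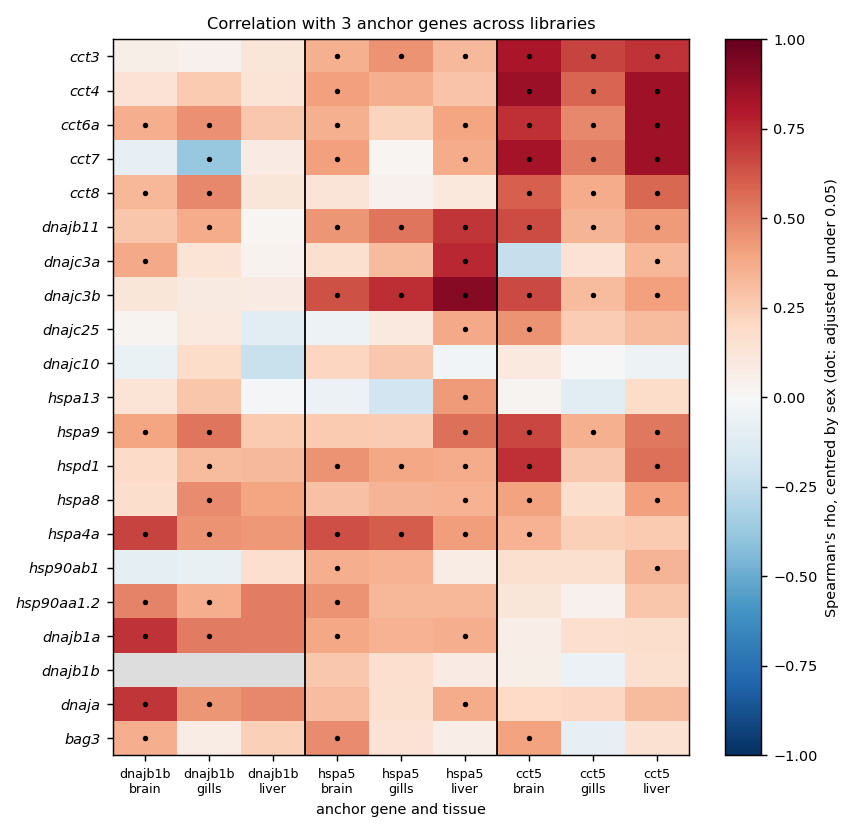
Spearman's rho of 21 chaperone genes with the anchors dnajb1b, hspa5 and cct5 in brain, gills and liver (colour scale from -1 to 1, grey where a gene was not tested or is the anchor, dot where the adjusted p was under 0.05). The 5 CCT subunits are positive with cct5 in all 3 tissues, and dnajc3b has rho 0.91 with hspa5 in liver.

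Between tissues, the 59 fish with 3 kept libraries were compared fish by fish. The trimmed mean of M-values gave median factors of 0.455 for liver, 1.53 for gills and 1.56 for brain, and scaling by total counts instead moved the median of all genes by -1.80 (log2) against brain and -1.74 against gills. The levels that follow are on that shared scale. A gene was called where its adjusted p was under 0.05 and its fold at least 2. Liver and brain differed for 51 of 83 chaperones, 28 higher in liver and 23 in brain, against 61% of 19151 genes (24.5% and 36.5%). Liver and gills differed for 38, 24 higher in liver and 14 in gills, against 50.3% of genes (19.3% and 30.9%). Gills and brain differed for 27, 10 higher in gills and 17 in brain, against 55% (26% and 29%). With DESeq2's size factors the splits were 22 and 29 for liver and brain, 20 and 17 for liver and gills, and 7 and 20 for gills and brain. In these pairs 11966, 9826 and 10380 of all 19151 genes were called. With library totals only 8 of 83 were higher in liver than in brain and 5 higher in liver than in gills, and 11 and 13 of the called genes changed sign, bag2, bag4, dnajb12a, dnajc1 and dnajc24 in both pairs. Over all genes library totals gave 15296 calls between liver and brain and 15717 between liver and gills. How these split by direction is not given.

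Most ER genes were higher in liver than in brain. Of 14 ER chaperones and ER J-domain proteins, 9 were higher in liver than in brain and 3 lower, with a median log2 difference of 1.68 against -0.27 over all genes, and of 21 other ER folding factors 18 were higher and 2 lower, with a median of 2.72. hspa5 had means of 247 ± 135 CPM in brain, 409.7 ± 289 CPM in gills and 4414 ± 6986 CPM in liver (SD, n = 59). The log2 difference from brain to liver was 3.47 ± 0.22 (edgeR adjusted p = 7.3e-31), and 1.57 with scaling by total counts. dnajc3a rose from 3.62 ± 1.43 CPM in brain to 110.5 ± 95.7 CPM in liver (4.65 ± 0.19), and dnajc25 from 9.93 ± 2.09 to 199.9 ± 184 CPM (4.01 ± 0.14). Of the 9 higher in liver, dnajb12a, dnajc1 and dnajc3b turned lower with total counts. dnajc3a and dnajc25 kept their sign, at 2.75 and 2.13. The largest difference of any of the chaperones between tissues was that of dnajc22, a membrane J-domain protein, at 0.342 ± 0.242 CPM in brain, 0.0439 ± 0.0692 CPM in gills and 40.8 ± 18.4 CPM in liver (9.75 ± 0.22 between liver and gills, edgeR adjusted p = 2.2e-75).

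Several J-domain proteins and an HSP70 relative were higher in brain than in both other tissues. dnajc6, auxilin, had 129 ± 16.7 CPM in brain, 1.70 ± 1.3 CPM in gills and 3.63 ± 3.80 CPM in liver, a log2 difference of -6.40 ± 0.18 between gills and brain (edgeR adjusted p = 1.5e-65). hspa12a had 95.6 ± 17.0, 8.52 ± 4.10 and 7.66 ± 4.24 CPM (-3.58 ± 0.12 between gills and brain). The ER membrane protein dnajb12b (-3.88 ± 0.15 between gills and brain, -4.55 ± 0.16 between liver and brain) and dnajb4, a relative of dnajb1 (-3.64 ± 0.18 and -5.03 ± 0.21), were likewise highest in brain. In contrast dnajc5gb, a relative of the cysteine string protein of synaptic vesicles, was higher in gills than in brain (2.56 ± 0.08). Genes higher in brain also included dnajc16, at 16.0 ± 5.8 CPM against 1.71 ± 1.02 CPM in gills (-3.33 ± 0.14 between gills and brain), and hspa4l, an HSP110 relative (-4.49 ± 0.24 between liver and brain). hspbp1, a nucleotide exchange factor of HSP70, was higher in liver, at 103 ± 134 CPM against 9.33 ± 5.65 CPM in gills (3.15 ± 0.19 between liver and gills, and 1.34 with total counts).

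The small heat shock proteins, which hold unfolding proteins in solution, did not share one tissue. hspb7 had 40.3 ± 28.2 CPM in gills, 9.67 ± 4.68 CPM in brain and 5.38 ± 25.3 CPM in liver, where 1 library held 196 CPM, the median was 1.67 CPM and the mean without that library 2.10 ± 1.70 CPM. This gave a log2 difference of 1.90 ± 0.18 between gills and brain (edgeR adjusted p = 4.0e-18) and -4.14 ± 0.21 between liver and gills. Of the 6 small heat shock proteins 3 (hspb1, hspb7 and hspb9) were higher in gills than in brain and none was lower. hspb8, a partner of bag3, was instead highest in liver, at 34.2 ± 27.5 CPM against 4.68 ± 2.07 CPM in brain and 4.58 ± 2.67 CPM in gills (2.71 ± 0.19 between liver and brain). Gill libraries also held striated muscle markers, with a sum from 882 to 12825 CPM (median 2777), against 46.6 to 3306 CPM (median 76.1) in brain, and the part of muscle in these levels was not tested. The inducible HSP90 genes split, since hsp90aa1.1, which in zebrafish folds myosin in muscle, was higher in gills than in brain (1.2 ± 0.19) and hsp90aa1.2 lower (-1.27 ± 0.22). In liver hsp90aa1.1 was below its level in gills, with a log2 difference of -4.18 ± 0.26 and hspa1b likewise, with -2.46 ± 0.30. Both transcription factors tested, hsf1 and hsf2, differed by less than a fold of 2 in each pair of tissues on this scale; with total counts the log2 difference between liver and brain was -1.59 for hsf1 and -2.37 for hsf2, and between liver and gills -1.56 and -1.70. hspb6, a small heat shock protein of muscle, was lower in liver than in gills (-2.67 ± 0.16).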

How the data were processed

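Whole brain, gills and liver of wild fish were measured by 3′ messenger RNA sequencing. Per the submitters' processing notes, the authors used fastp, STAR and HTSeq, whose versions are not given in the sources used here, nor are the genome build and the strand setting. The deposited values are raw counts of reads per gene, in 1 table for each tissue. Groups were taken from the sample labels, and libraries under 1000000 counts were left out.

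Sex was tested within each tissue by edgeR 4.0.16 in R 4.3.3 (quasi-likelihood F test, TMM scaling, filterByExpr with a minimum of 10 counts, robust fit), with Benjamini-Hochberg adjustment over all genes tested at a threshold of 0.05. Tissues were compared with fish as a block, and sex by tissue in 1 fit over all kept libraries without a block for fish. In the fits with a block the dispersion trend was estimated from 1000 genes spaced evenly in abundance. Correlations used log2 CPM with a prior count of 2, centred on sex, and 100000 permutations within sex. DESeq2 1.42.0 was an alternative to the main test. The fits were tested on simulated counts. Floors in counts cover counting error only, and reads without molecular identifiers are not independent molecules. Standard deviations are across libraries. Standard errors come from the edgeR fit, which includes the variation between libraries.

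The description tags, not the replicate numbers, link the tissues of a fish. Within a tissue, female and male libraries that share a replicate number did not deviate together (median correlation -0.03, -0.07 and 0.03 in brain, gills and liver), so the numbers were not used as pairs. No 2 libraries of the same tissue and sex agreed within sampling noise. Female libraries were not compared with male libraries in this way. The genes and gene lists were chosen with earlier results of these data known. The text names the 10 most abundant chaperones of each tissue, those called by sex (12 with the largest change in liver, and the called HSP90, HSP70, ER and heat-inducible genes), the 5 with the largest change in each direction between tissues, the 8 largest interactions and correlations, and the genes on X; genes named beyond that were chosen after their values were seen. Gene positions were used only as chromosome class, from the RefSeq table of assembly fGasAcu3.hap1.1, which matched 83 of 88 genes by symbol.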

Additional observations from a re-analysis of the deposited data

Results flagged for a closer look

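Of the chaperones whose sex difference itself differed between liver and another tissue, by the interaction of sex and tissue in edgeR, the 8 with the largest values in each pair of tissues were taken, 10 genes in all. The values are log2 interactions, liver minus the other tissue, of the female minus male difference. Toward higher male levels in liver stood hsp90aa1.2, with -2.86 against brain and -2.81 against gills, dnaja with -1.45 and -1.54, hspa4a with -1.23 and -1.29, and hsp90ab1 with -1.24 against brain. hspb7, with -1.83 against brain and -2.02 against gills, rested on liver male 9, the highest liver for this gene. Toward higher female levels in liver stood dnajc25, with 1.47 against brain and 1.3 against gills, dnajc3a with 1.26 and 1.38, dnajb11 with 1.37 against brain, and hspa13 with 1.2 against gills. dnajc6 had 1.27 against gills, where it was higher in males and its highest library also had the highest sum of neuron and glia markers. Their part in that value was not tested.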

How the results depend on the processing

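The counts of chaperones called by sex were 5 in brain, 11 in gills and 30 in liver. Leaving out X and Y genes gave 2 for brain, where 78 rather than 80 chaperones were tested. The called dnaja and dnajb9a, both on X, were themselves removed there. The replicate number as a block gave 7 for gills, 4 for brain and 26 for liver, and the numbers do not pair the fish. Scaling by library totals gave 47 for liver, where 7795 of all 13447 genes were called. Chaperones differing between liver and gills rose from 38 to 58 with library totals, while calls over all 19151 genes rose from 9624 to 15717. The single chaperone that agreed between liver and brain became 0 with all libraries, 3 with Pearson correlation, 0 with tag series as a term, 3 with library totals and 2 without the libraries of doubtful sex label. The 13 chaperones related to vitellogenin became 6 with Pearson correlation. Apart from the removal of dnaja and dnajb9a, the cause of these changes was not tested. Under the replicate block the sex difference of hspa1b in gills turned to 0.0027, and without liver male replicate 9 the interaction of hspb7 between liver and brain turned to 0.0094. Leaving out the highest library of a called gene, a choice made after seeing the data, left 5 calls for brain each time, 9 to 11 for gills and 28 to 32 for liver. By direction, the 20 chaperones higher in male livers became 13 with all libraries, and the 5 and 6 higher in female and male gills became 3 and 5 with tag series as a term and 4 and 3 under the replicate block. By Pearson correlation, also chosen after seeing the data, those related to hspa5 and cct5 in gills went from 7 to 12 and from 20 to 31, and to dnajb1b in liver from 0 to 3. Except for dnajb1b in liver, no share of all genes by Pearson correlation is given, so the changes under it have no background. The planned search for promoter motifs was not run, since no promoter sequence was at hand.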
